A study of Mus musculus with 6 samples.

Results

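Early adipogenic commitment factors are the transcription factors that act in fibroblast-like precursors before or around the onset of Pparg, and 10 of them were followed here: Ebf1, Ebf3, Zfp423, Zfp521, Zfp467, Gata2, Gata3, Nr2f2, Tcf7l1 and Tcf7l2. They were selected by gene symbol, and all 10 had a row in the deposited table of 17924 genes. Dermal fibroblasts from the back skin of newborn mice (postnatal day 0, C57BL/6J) were kept for 14 days in adipocyte differentiation medium before RNA-seq. CTL cells came from Pdgfra-Cre+/- mice whose Nelfb locus was fl/wt or wt/wt, and Nelfb-/- cells, labelled Nelfb KO, came from Nelfb fl/fl Pdgfra-Cre+/- mice, with 3 libraries in each group. Both groups thus carried the Cre transgene, which acts in cells that have expressed Pdgfra, and the labels do not say which CTL library had which of the 2 control genotypes. The study calls the libraries biological triplicates, whereas nothing in the labels ties a library to 1 mouse, so p-values measure the spread between these libraries. Nelfb, a subunit of the NELF complex that holds RNA polymerase II near the start of genes, lay between 17.3 and 22.3 CPM in CTL and between 3.90 and 5.55 CPM in Nelfb-/- cells (CPM, reads per 1e+06 reads on the listed genes, not corrected for gene length), a 3.97-fold lower level (limma, adjusted p = 0.0050). The libraries held between 17.1 and 29.3 times 1e+06 reads on the listed genes. CTL replicate 3 and Nelfb-/- replicate 1 stood farthest apart on the second principal component, so that values without these 2 libraries, a choice made after the data were seen, are given beside each factor. Leaving them out narrows the spread within the groups, and 27.1% of all genes then passed the threshold given below, against 11.2% with all libraries, so that these values are given as a description with no p.

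White adipocytes arise in steps, in which a mesenchymal cell first becomes a committed preadipocyte and then turns on Pparg and Cebpa. Zfp423 marks and drives commitment by acting with SMAD proteins of the BMP pathway, its close relative Zfp521 opposes it, and both bind EBF proteins. Ebf1 favours adipocyte differentiation and Zfp467 favours the adipocyte over the bone-forming fate, whereas Gata2, Gata3 and Nr2f2 hold cells in the preadipocyte state by restraining Pparg. Tcf7l1 and Tcf7l2 are DNA-binding partners of beta-catenin, the effector of Wnt signaling, and Tcf7l1 works largely as a repressor.

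Among the 10 factors, Gata2 was the 1 gene whose level differed past the threshold, and it was higher in Nelfb-/- cells. The threshold was an adjusted p of at most 0.05 in limma, with Benjamini-Hochberg adjustment across the 16251 genes tested, together with a change of at least 2-fold. It was met by 7.58% of all genes tested in the upward direction and by 3.64% in the downward direction, 11.2% in all, so that 1 of 10 factors is close to the share of genes at large. Gata2 was also the 1 factor with an adjusted p of at most 0.05 at any fold (15.8% of all genes) and the 1 with an unadjusted p under 0.05 (32.5% of all genes), and 0 factors were downregulated. The same fit with quantile-normalized libraries moved the upward share of all calls from 67.5% to 54.9%, and Gata2 passed there too. The median log2 fold change (log2FC) of the 10 factors (Nelfb-/- relative to CTL) was 0.064, beside 0.068 for all genes tested. The median of their absolute log2FC values was 0.399, beside 0.429 for all genes. For 5 of them, Ebf1, Ebf3, Zfp423, Nr2f2 and Tcf7l2, the 95% confidence interval from limma lay within 2-fold in both directions, and for the other 5 it reached past 2-fold on 1 side.

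Sequences are shown for Gata2 and Gata3, since Gata2 was the 1 factor past the threshold and Gata3 is its paralog, and both have a RefSeq promoter (build GRCm38.p6). Each is the 250 bases before an annotated start, 5′ to 3′ on the strand of the gene, with the GC box GGGCGG, a site for Sp1-type factors, in capitals on either strand. The Gata2 window, chr6:88193641-88193890 on the plus strand, lies before the distal of its 2 RefSeq starts, and that of Gata3, chr2:9878601-9878850 on the minus strand, is also covered by an exon of the antisense RNA gene Gm13256.
Gata2: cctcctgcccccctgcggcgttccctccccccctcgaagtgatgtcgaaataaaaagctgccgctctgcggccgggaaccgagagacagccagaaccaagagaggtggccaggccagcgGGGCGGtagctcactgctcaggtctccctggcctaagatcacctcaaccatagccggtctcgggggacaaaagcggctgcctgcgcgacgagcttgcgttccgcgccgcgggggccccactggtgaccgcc
Gata3: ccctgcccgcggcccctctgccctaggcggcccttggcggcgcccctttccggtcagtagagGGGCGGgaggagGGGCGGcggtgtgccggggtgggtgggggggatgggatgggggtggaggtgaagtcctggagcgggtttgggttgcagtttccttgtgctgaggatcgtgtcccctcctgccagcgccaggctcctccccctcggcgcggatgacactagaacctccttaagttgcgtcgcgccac
The Gata2 window held 1 GC box and the Gata3 window held 2. Their GC content was 67.2% and 70.0%, where the median of all 32851 RefSeq windows of this length was 52.4%. Promoter windows were found for 9 of the 10 factors, 13 windows in all, and Zfp521 had no entry. A GC box stood in 9 of the 13 windows and in 32.7% of all windows. The GATA motif (AGATAA and AGATAG, together with the variants TGATAA and also TGATAG, on either strand) stood in 2 of the 13 windows, that of Nr2f2 and the second of Tcf7l2, and in 26.5% of all windows. It was in neither of the windows printed above. The EBF motif CCCNNGGG stood in 4 windows (11.8% of all), at Ebf3, the second start of Zfp423, Zfp467 and the proximal start of Gata2. The TCF motif (CTTTGAA or CTTTGAT) stood in 1 window, that of Nr2f2 (7.48% of all). These are matches of letters in short windows and not sites of binding, and windows of the same gene are not independent.

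The 10 factors spanned a wide range of levels, and the order was led by Ebf1 and Tcf7l1. For this comparison between genes, CPM values were divided by the length of all annotated exons of each gene, in kilobases (kb). In CTL cells, Ebf1 had 22.7 ± 3.34 CPM per kb of exon (SD, n = 3) and Tcf7l1 had 21.7 ± 6.10, and the libraries of these 2 genes overlapped. A gap followed, after which Zfp521, Zfp467, Zfp423 and Tcf7l2 lay between 3.34 and 3.82 on average, each overlapping its neighbour. Nr2f2, at 2.76 ± 0.315, lay below Tcf7l2 in every CTL library, and Ebf3, at 0.901 ± 0.256, lay below Nr2f2. The GATA factors were the lowest, with 0.278 ± 0.153 for Gata3 and 0.070 ± 0.033 for Gata2. In Nelfb-/- cells the order of the first 3 genes by mean was the same, with Ebf1 and Tcf7l1 again overlapping, whereas Gata2 and Gata3 changed places at the lower end. There, Gata2 had 0.322 ± 0.019 and Gata3 had 0.092 ± 0.065 CPM per kb of exon, with no overlap between them.

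**Figure D1:**
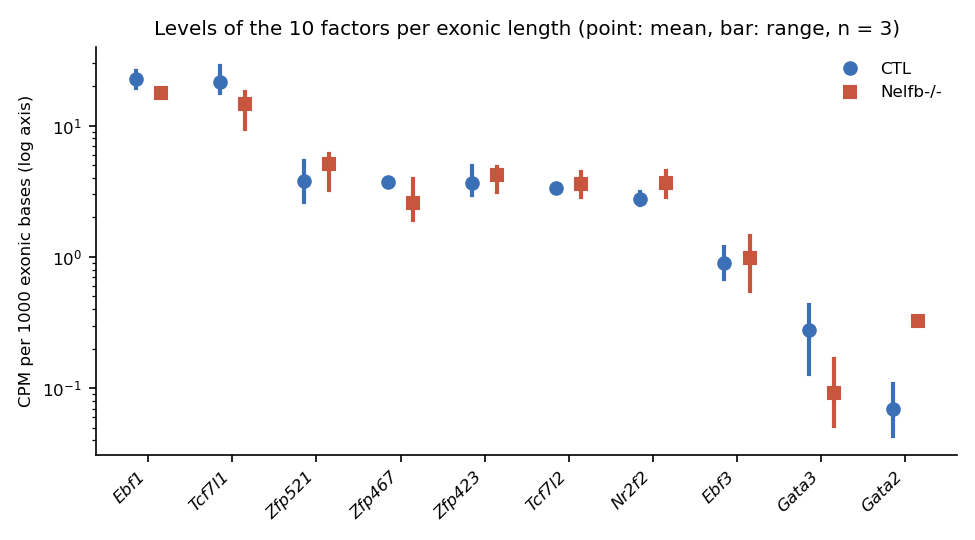
Levels of the 10 factors on a log axis, as CPM per kb of exon, with the mean as a point and the range of the 3 libraries as a bar for CTL (blue circles) and Nelfb-/- cells (red squares). Ebf1 and Tcf7l1 lead in both groups, and Gata2 is the lowest in CTL cells at 0.070 but lies above Gata3 in Nelfb-/- cells at 0.322.

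Gata2 (ENSMUSG00000015053, chromosome 6 from 88193891 to 88207032 on GRCm38) reached 0.316, 0.233 and 0.578 CPM in CTL replicates 1 to 3, compared with 1.75, 1.63 and 1.84 CPM for the Nelfb-/- libraries in the same order. All Nelfb-/- libraries exceeded all CTL libraries, and they were close to each other. The log2FC was 2.17 (limma, SE 0.41, adjusted p = 0.018), a 4.49-fold increase with a 95% confidence interval of 2.29 to 8.81. These levels rest on few reads, about 7, 5 and 17 in the CTL libraries and 37, 28 and 45 in the Nelfb-/- libraries. Counting error alone puts the 5 reads of CTL replicate 2 between 1.62 and 11.7 reads and the 28 reads of Nelfb-/- replicate 2 between 18.6 and 40.5 reads (exact 95% Poisson intervals). The call held without CTL replicate 3 (2.49, limma, adjusted p = 0.0098) and without Nelfb-/- replicate 1 (2.16, limma, adjusted p = 0.036). It was lost without CTL replicate 1 (limma, adjusted p = 0.071), CTL replicate 2 (0.065), Nelfb-/- replicate 2 (0.066) or Nelfb-/- replicate 3 (0.093), while the log2FC stayed between 1.91 and 2.49. In these fits 5.35%, 4.66%, 5.86% and 2.63% of all genes passed, in the same order, beside 11.2% with all libraries. The share was 15.2% without CTL replicate 3 and 12.1% without Nelfb-/- replicate 1, so that such losses are not particular to Gata2. Without CTL replicate 3 and Nelfb-/- replicate 1 together, Gata2 was at 2.49. The table gives 1 value per gene, so that transcripts from the distal and the proximal start of Gata2, the former known from blood and neural cells, were not told apart.

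Gata2 is also used by mast cells and endothelial cells, and marker genes of several cell types other than adipocytes moved with the genotype. Of 8 macrophage markers, 7 were upregulated past the threshold, and their summed level was 184 to 677 CPM in CTL and 1837 to 5750 CPM in Nelfb-/- cells. The summed level of 8 endothelial markers was 14.2 to 28.9 CPM in CTL and 96.2 to 190 CPM in Nelfb-/- cells. Lyve1, which macrophages can also express, made up most of it in all 3 Nelfb-/- libraries, at 72.4 to 178 CPM, and had 5.88 to 17.9 CPM in CTL. Emcn and Lyve1 were the 2 endothelial markers past the threshold, whereas Kdr, Tek, Cdh5, Prox1 and Flt4 overlapped between the groups. Pecam1 reached 0.271, 0.420 and 1.496 CPM in CTL, compared with 3.89, 2.44 and 2.82 CPM for the Nelfb-/- libraries, higher in all of them (log2FC 2.32, limma, adjusted p = 0.0505). Of the 8 mast cell markers, 5 were listed, of which Kit alone was high enough to be tested and did not pass, with sums of 1.46 to 4.81 CPM in CTL and 2.50 to 11.0 CPM in Nelfb-/- cells. The melanocyte and Schwann cell markers summed to 1.22 to 1.43 and 22.2 to 26.9 CPM in CTL and to 30.3 to 72.1 and 110 to 135 CPM in Nelfb-/- cells, and 4 of 6 skeletal muscle markers were upregulated. The part of these cells in the Gata2 level was not tested, and in bulk RNA more cells of a type and more RNA per cell cannot be told apart.

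Gata3 (ENSMUSG00000015619, chromosome 2 from 9857078 to 9890034) reached 1.08, 1.73 and 0.510 CPM in CTL replicates 1 to 3, compared with 0.664, 0.233 and 0.204 CPM for the Nelfb-/- libraries in the same order. CTL replicate 3 lay below Nelfb-/- replicate 1, so that the groups overlapped at 1 library each. The log2FC was -1.50 (limma, SE 0.63, adjusted p = 0.15), with a 95% confidence interval from -3.00 to 0.0019, which only just reaches 0. Between 4 and 37 reads per library stand behind these values. Without CTL replicate 3 and Nelfb-/- replicate 1 the log2FC was -2.43, and these are the same 2 libraries that overlapped for Gata3. Keratinocytes and T cells also use Gata3. The summed keratinocyte markers were 2.75 to 3.17 CPM in CTL and 6.69 to 14.6 CPM in Nelfb-/- cells, with 1 of the 5 listed, Krt14, upregulated. Of 8 markers of T cells or innate lymphoid cells, 3 were listed, and Cd3e, Cd3d and Cd3g were not among the genes analysed here. Lck was at 0.451, 0.140 and 0.510 CPM in CTL replicates 1 to 3, compared with 0.616, 0.349 and 0.204 CPM for the Nelfb-/- libraries. Il7r reached 12.1, 6.21 and 2.01 CPM in CTL replicates 1 to 3, compared with 13.0, 1.98 and 1.88 CPM for the Nelfb-/- libraries. Rora, which many other cells also use, reached 214, 246 and 101 CPM in CTL, compared with 195, 88.5 and 85.5 CPM for the Nelfb-/- libraries. Gata3, Il7r and Rora were thus each lowest in Nelfb-/- replicates 2 and 3 and lower in CTL replicate 3 than in CTL replicates 1 and 2 and Nelfb-/- replicate 1, whereas Lck did not have this order. CTL replicate 3 and Nelfb-/- replicates 2 and 3 also lay together on the second principal component of all tested genes, with 27.7% of the variance. This split is therefore not particular to Gata3 and the markers of lymphoid cells. The part of these cells in the Gata3 level was not tested.

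The ratio of Gata2 to Gata3 was taken within each library, with 1 read at the common depth added to both genes. Its log2 value was -1.64, -2.67 and 0.17 in CTL replicates 1, 2 and 3 and 1.34, 2.59 and 2.92 in Nelfb-/- replicates 1, 2 and 3. All Nelfb-/- libraries exceeded all CTL libraries, and the mean difference was 3.67 on the log2 scale. It was 2.89 with 5 reads added, and with each library left out it lay between 3.02 (without CTL replicate 2) and 4.44 (without CTL replicate 3). Per kb of exon, Gata3 lay above Gata2 in all 3 CTL libraries and below it in all 3 Nelfb-/- libraries. A two-sided exact permutation test gave p = 0.1, the smallest that 3 against 3 libraries allow, and 0.4 after adjustment over 4 such ratios of paralogs. Of the other GATA factors, Gata6 passed the threshold in the opposite direction to Gata2. It reached 16.1, 13.6 and 10.6 CPM in CTL, compared with 2.75, 5.88 and 5.22 CPM for the Nelfb-/- libraries, a log2FC of -1.59 (limma, SE 0.34, adjusted p = 0.027). That call was lost without CTL replicate 1 (limma, adjusted p = 0.10), CTL replicate 2 (0.095) or Nelfb-/- replicate 3 (0.081). Gata1, Gata4 and Gata5 were not among the genes analysed here. Of the GATA cofactors, Zfpm1 had a log2FC of 0.12 (limma, adjusted p = 0.67) and Zfpm2 one of -1.72 (limma, SE 0.56, adjusted p = 0.087), with all Nelfb-/- libraries below all CTL libraries for Zfpm2.

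**Figure D2:**
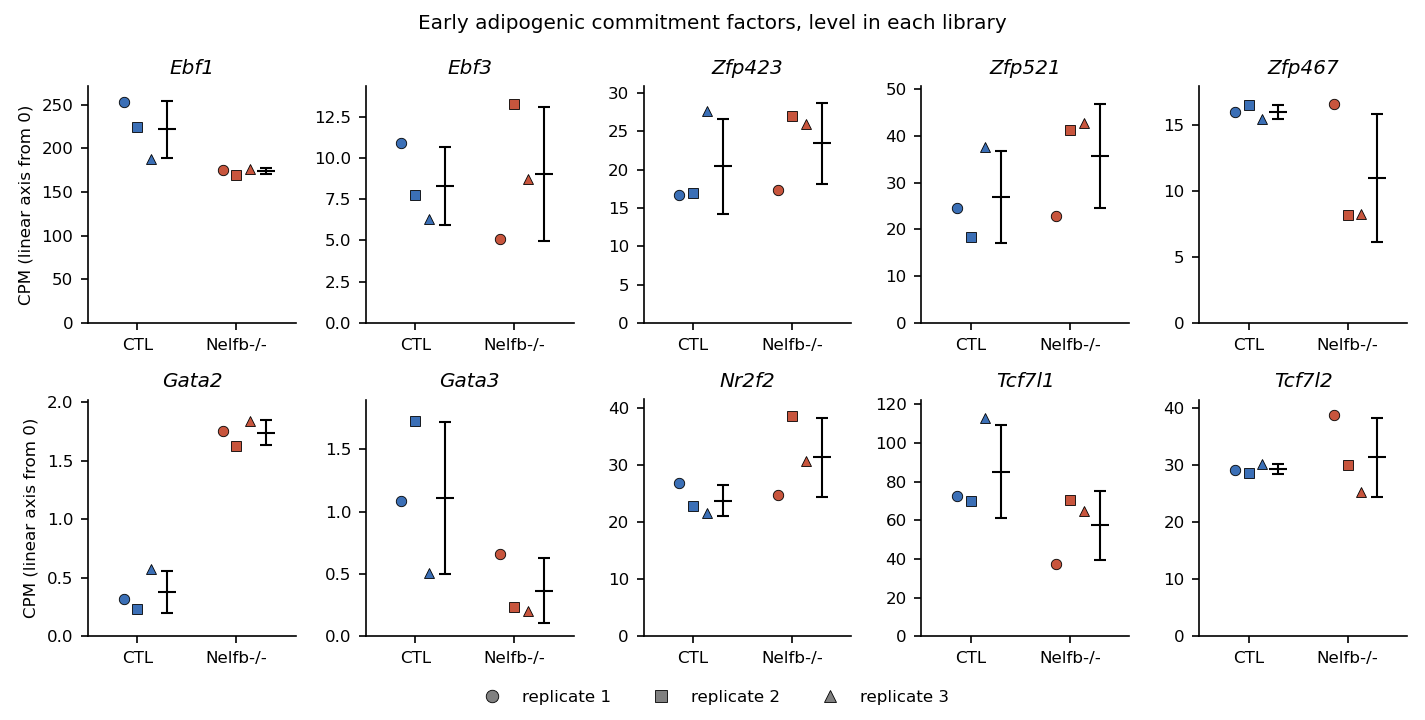
Level of each of the 10 factors in CPM on linear axes from 0, with 1 symbol per library (circle, square and triangle for replicates 1, 2 and 3) and the mean with its SD beside them (n = 3). Gata2 and Ebf1 are the 2 genes at which the groups do not overlap, and Zfp423 and Zfp521 are high in CTL replicate 3 and in Nelfb-/- replicates 2 and 3.

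Ebf1 (ENSMUSG00000057098, chromosome 11 from 44617317 to 45008091) had the highest mean level per kb of exon of the 10 factors, while its libraries overlapped those of Tcf7l1 in both groups. It reached 253, 224 and 188 CPM in CTL replicates 1 to 3, compared with 175, 170 and 176 CPM for the Nelfb-/- libraries in the same order. All CTL libraries exceeded all Nelfb-/- libraries. Such separation, in either direction, was found at 2 of the 10 factors (Ebf1 and Gata2) and at 38.1% of all genes tested. With Nelfb-/- cells higher it was found at Gata2 and at 22% of all genes, and with Nelfb-/- cells lower at Ebf1 and at 16.1%. The log2FC of Ebf1 was -0.34 (limma, SE 0.15, adjusted p = 0.18), with a 95% confidence interval from -0.71 to 0.022, which leaves out a 2-fold decrease in these libraries. Without CTL replicate 3 and Nelfb-/- replicate 1 it was -0.46. By RT-qPCR normalized to Gapdh, the study reported that Ebf1 was markedly lower in Nelfb-deleted cells. The difference between that assay and these values was not tested.

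Ebf3 (ENSMUSG00000010476, chromosome 7 from 137193673 to 137314445) encodes a close paralog of Ebf1 and was far lower per kb of exon. It reached 10.9, 7.75 and 6.29 CPM in CTL, compared with 5.12, 13.3 and 8.73 CPM for the Nelfb-/- libraries, and Nelfb-/- replicates 1 and 2 were the lowest and the highest of all 6 libraries. Its log2FC was 0.053 (limma, SE 0.39, adjusted p = 0.94), and the sign turned under other scalings and without single libraries. The 95% confidence interval ran from -0.88 to 0.99, and the value without CTL replicate 3 and Nelfb-/- replicate 1 was 0.23. The log2 ratio of Ebf1 to Ebf3 was 4.76 ± 0.197 (SD, n = 3) in CTL and 4.36 ± 0.703 in Nelfb-/- cells, a difference of -0.39 (two-sided exact permutation test, p = 0.5, adjusted p = 0.5). Of the remaining EBF genes, Ebf2, known for its role in brown fat precursors, reached 20.9, 11.9 and 19.2 CPM in CTL, compared with 3.84, 12.6 and 7.87 CPM for the Nelfb-/- libraries. Its log2FC was -1.21 (limma, SE 0.46, adjusted p = 0.12), and the groups overlapped at 1 library each. Ebf4 was at -1.26 (limma, SE 0.65, adjusted p = 0.24).

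Zfp423 and Zfp521 had a pattern across the libraries that cut across the genotypes. Zfp423 (ENSMUSG00000045333, chromosome 8 from 87661810 to 87959595) reached 16.7, 16.9 and 27.6 CPM in CTL replicates 1 to 3, compared with 17.4, 27.0 and 25.9 CPM for the Nelfb-/- libraries in the same order. Zfp521 (ENSMUSG00000024420, chromosome 18 from 13687013 to 13972787) reached 24.7, 18.3 and 37.6 CPM in CTL, compared with 22.9, 41.3 and 42.8 CPM for the Nelfb-/- libraries. For both genes, CTL replicate 3 and Nelfb-/- replicates 2 and 3 were high, and CTL replicates 1 and 2 and Nelfb-/- replicate 1 were low, with no overlap between the high and the low libraries. The log2FC by genotype was 0.21 for Zfp423 (limma, SE 0.27, adjusted p = 0.63) and 0.42 for Zfp521 (limma, SE 0.35, adjusted p = 0.45). The 95% confidence intervals ran from -0.44 to 0.87 and from -0.42 to 1.25. With CTL replicate 3 and Nelfb-/- replicate 1 left out, the values were 0.65 and 0.98, which follows from the pattern above, since these are the high CTL library and the low Nelfb-/- library.

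The log2 ratio of Zfp423 to its antagonist Zfp521 is not corrected for gene length, so that its sign does not order the levels of the 2 genes. It was -0.56, -0.11 and -0.45 in the CTL replicates and -0.39, -0.61 and -0.72 in the Nelfb-/- replicates. The groups overlapped, and the difference of -0.20 was not separable from the spread (two-sided exact permutation test, p = 0.3, adjusted p = 0.4). The same libraries that were high in both genes lay on 1 side of the second principal component of all tested genes, which held 27.7% of the variance beside 59.9% for the first. The summed fibroblast and progenitor markers reached 3516, 3080 and 12018 CPM in CTL replicates 1 to 3, compared with 6100, 23417 and 25252 CPM for Nelfb-/- replicates 1 to 3. Col1a1 and Col3a1 together made up most of that sum in each library, and 1 of the 10 markers, Dpp4, passed the threshold. Dcn had another order, with 467, 501 and 310 CPM in CTL, compared with 348, 404 and 440 CPM for the Nelfb-/- libraries. The summed adipocyte markers reached 25786, 24530 and 17447 CPM in CTL, compared with 9152, 18642 and 15157 CPM for Nelfb-/- libraries, and all 8 adipocyte markers were listed. Fabp4 was the largest part of this sum, at 12706 to 17827 CPM in CTL and 4571 to 10808 CPM in Nelfb-/- cells, while Lep and Plin4 were higher in all Nelfb-/- libraries than in all CTL libraries. The part of these shifts in the 2 zinc finger genes was not tested.

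Zfp467 (ENSMUSG00000068551, chromosome 6 from 48427697 to 48445825) reached 16.0, 16.5 and 15.5 CPM in CTL replicates 1 to 3, compared with 16.6, 8.15 and 8.28 CPM for the Nelfb-/- libraries in the same order. Nelfb-/- replicate 1 thus lay at the level of the CTL libraries, whereas replicates 2 and 3 lay well below them. The log2FC was -0.62 (limma, SE 0.30, adjusted p = 0.21), with a 95% confidence interval from -1.33 to 0.095. Leaving out Nelfb-/- replicate 1 gave -0.96 (limma, adjusted p = 0.018), short of 2-fold. Leaving out CTL replicate 3 as well gave -0.98.

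Nr2f2 (ENSMUSG00000030551, chromosome 7 from 70351944 to 70366735), which encodes the orphan nuclear receptor COUP-TFII, reached 26.8, 23.0 and 21.6 CPM in CTL, compared with 24.8, 38.7 and 30.8 CPM for the Nelfb-/- libraries. Nelfb-/- replicate 1 lay within the range of the CTL libraries, and replicates 2 and 3 lay above it. Its log2FC was 0.38 (limma, SE 0.20, adjusted p = 0.24), with a 95% confidence interval from -0.096 to 0.86. Without CTL replicate 3 and Nelfb-/- replicate 1 it was 0.47. The noncoding gene B130024G19Rik overlaps Nr2f2 on the opposite strand and reached 0.090, 0.047 and 0.378 CPM in CTL, compared with 0.571, 0.527 and 0.695 CPM for the Nelfb-/- libraries, too low to be tested. The closest relative, Nr2f1 (COUP-TFI), passed the threshold. It reached 4.19, 3.83 and 3.06 CPM in CTL, compared with 11.0, 12.6 and 7.14 CPM for the Nelfb-/- libraries, a log2FC of 1.43 (limma, SE 0.28, adjusted p = 0.020). The Nr2f1 call was lost without CTL replicate 1 (limma, adjusted p = 0.061), CTL replicate 2 (0.073) or Nelfb-/- replicate 2 (0.073). Nr2f6, the more distant relative, was at -0.15 (limma, SE 0.26, adjusted p = 0.73).

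Tcf7l1 (ENSMUSG00000055799, chromosome 6 from 72626378 to 72789254) reached 72.8, 70.1 and 113 CPM in CTL replicates 1 to 3, compared with 37.2, 70.4 and 64.8 CPM for the Nelfb-/- libraries in the same order. CTL replicate 3 was the highest library and Nelfb-/- replicate 1 the lowest, and the other 4 lay close together. The log2FC was -0.59 (limma, SE 0.30, adjusted p = 0.23), with a 95% confidence interval from -1.31 to 0.14. Without these 2 libraries it was -0.08. Tcf7l2 (ENSMUSG00000024985, chromosome 19 from 55741820 to 55933654) reached 29.1, 28.6 and 30.2 CPM in CTL, compared with 38.7, 30.0 and 25.2 CPM for the Nelfb-/- libraries. The CTL libraries fell inside the range of the Nelfb-/- libraries, and the log2FC was 0.075 (limma, SE 0.18, adjusted p = 0.81). Its 95% confidence interval, from -0.36 to 0.51, was the narrowest of the 10 factors after that of Ebf1, and without the same 2 libraries Tcf7l2 was at -0.07. The log2 ratio of Tcf7l1 to Tcf7l2 was 1.32, 1.29 and 1.90 in CTL and -0.06, 1.23 and 1.36 in Nelfb-/- cells (two-sided exact permutation test, p = 0.3, adjusted p = 0.4). Nelfb-/- replicate 1 lay apart from the other 5 libraries. The other members of the family, Tcf7 and Lef1, had 0.676 to 1.43 and 1.06 to 1.81 CPM in CTL. Lef1 had 2.40 to 2.58 CPM in Nelfb-/- cells, above all CTL libraries, and a log2FC of 0.79 (limma, SE 0.29, adjusted p = 0.12). That of Tcf7 was 0.50 (limma, adjusted p = 0.40).

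**Figure D3:**
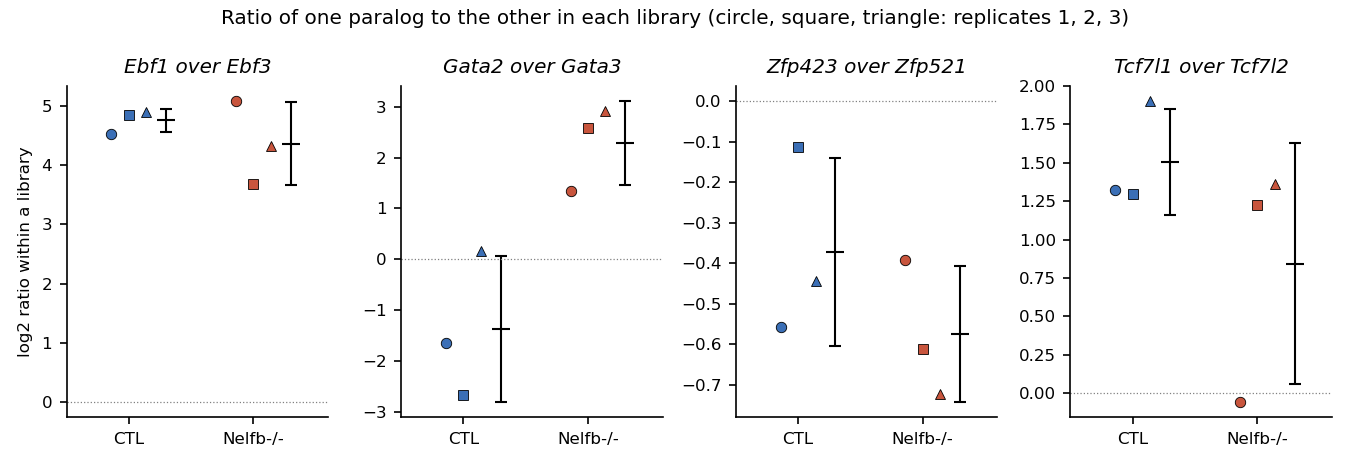
Log2 ratio of 1 paralog to the other within each library, with 1 symbol per replicate (circle, square and triangle for 1, 2 and 3) and the mean with its SD beside them (n = 3). The Gata2 to Gata3 ratio lies between -2.67 and 0.17 in CTL and between 1.34 and 2.92 in Nelfb-/- cells, while the groups overlap for the other 3 pairs.

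The genes with which these factors work, or on which they act, were followed in lists written from general knowledge. Of 20 partners and corepressors tested, such as the Groucho proteins and histone deacetylases, 0 passed the threshold in limma, and 6 had an unadjusted p under 0.05 (32.5% of all genes). Ctnnb1 and Hdac1 had an adjusted p of at most 0.05 at less than 2-fold, and Ctnnb1 was named after its values were seen. Ctnnb1, which encodes beta-catenin, reached 294, 295 and 359 CPM in CTL, compared with 549, 511 and 488 CPM for the Nelfb-/- libraries, a log2FC of 0.71 (limma, SE 0.16, adjusted p = 0.030). Hdac1 was at 0.98 (limma, SE 0.26, adjusted p = 0.049), and both were thus higher in Nelfb-/- cells. Of 17 tested target genes of beta-catenin and TCF, 12 were higher in Nelfb-/- cells (54.6% of all genes), with a median log2FC of 0.79 beside 0.068 for all genes tested. The 3 that passed the threshold, all upward (7.58% of all genes), were Nkd2, Wif1 and Apcdd1. Nkd2, which binds Dishevelled, reached 8.75, 13.3 and 10.4 CPM in CTL, compared with 50.9, 57.7 and 63.6 CPM for the Nelfb-/- libraries (log2FC 2.42, limma, SE 0.20, adjusted p = 0.0033). The secreted Wif1 was at 0.180, 0.093 and 1.46 CPM in CTL, of which the first 2 values are near or under 3 reads, and at 2.80, 4.77 and 11.3 CPM for the Nelfb-/- libraries (log2FC 3.90, limma, adjusted p = 0.042). The Wif1 call was lost without CTL replicate 1 (limma, adjusted p = 0.136), CTL replicate 2 (0.125), Nelfb-/- replicate 2 (0.108) or Nelfb-/- replicate 3 (0.150), and its log2FC ran from 3.21 without CTL replicate 2 to 4.93 without CTL replicate 3. Apcdd1 reached 67.4, 64.6 and 61.6 CPM in CTL, compared with 115, 218 and 207 CPM for the Nelfb-/- libraries (log2FC 1.42, limma, adjusted p = 0.017), a call lost without CTL replicate 1 (0.061), CTL replicate 2 (0.066), Nelfb-/- replicate 2 (0.056) or Nelfb-/- replicate 3 (0.078). Axin2, a widely used target gene, reached 6.77, 6.91 and 2.21 CPM in CTL, compared with 2.80, 2.21 and 3.26 CPM for the Nelfb-/- libraries, with overlap between the groups, and was named after its values were seen (log2FC -0.78, limma, adjusted p = 0.31). Of 11 tested BMP and SMAD targets, the setting of Zfp423, 0 passed the threshold in limma, 0 had an adjusted p of at most 0.05 and 3 had an unadjusted p under 0.05, while 8 were higher, beside 32.5% and 54.6% of all genes. Id2 reached 16.1, 14.0 and 42.2 CPM in CTL, compared with 87.3, 47.8 and 49.5 CPM for the Nelfb-/- libraries (log2FC 1.48, limma, adjusted p = 0.077).

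Of the 15 genes of the adipocyte programme, 14 were lower in Nelfb-/- cells, with a median log2FC of -0.70, and 3 passed the threshold. These were Slc2a4, the insulin-responsive glucose transporter, Adig and Retn, with log2FC values of -2.02, -1.55 and -2.12 (limma, adjusted p = 0.0057, 0.012 and 0.013). The Adig call did not hold without Nelfb-/- replicate 3 (limma, adjusted p = 0.061), nor that of Retn without CTL replicate 1 (0.053), CTL replicate 2 (0.051) or Nelfb-/- replicate 3 (0.066). The list does not hold Lep and Plin4, which are among the adipocyte markers and lay in the other direction. Lep, which encodes leptin, reached 0.180, 0.373 and 2.04 CPM in CTL, compared with 10.3, 32.4 and 33.0 CPM for the Nelfb-/- libraries, and was upregulated (log2FC 5.26, limma, adjusted p = 0.014). The Lep call was lost without CTL replicate 2 (limma, adjusted p = 0.057), Nelfb-/- replicate 2 (0.053) or Nelfb-/- replicate 3 (0.067). Plin4, a lipid droplet protein, reached 918, 1324 and 843 CPM in CTL, compared with 1688, 1691 and 1755 CPM for the Nelfb-/- libraries, and did not pass (log2FC 0.76, limma, adjusted p = 0.085). Of the 24 tested genes among other early regulators of commitment, 4 were upregulated past the threshold. The preadipocyte factor Dlk1 and the Wnt ligand Wnt10b were upregulated, as were Prdm8 and Sox6. Dlk1 reached 53.9, 48.0 and 232 CPM in CTL, compared with 661, 1115 and 898 CPM for the Nelfb-/- libraries (log2FC 3.37, limma, SE 0.61, adjusted p = 0.017). The Dlk1 call was lost without CTL replicate 1 (limma, adjusted p = 0.063), CTL replicate 2 (0.060), Nelfb-/- replicate 2 (0.061) or Nelfb-/- replicate 3 (0.072), and its log2FC ran from 2.96 without CTL replicate 2 to 4.10 without CTL replicate 3. Wnt10b reached 0.767, 0.513 and 1.12 CPM in CTL, compared with 6.21, 6.11 and 5.26 CPM for the Nelfb-/- libraries (log2FC 2.87, limma, SE 0.34, adjusted p = 0.0058). For both Dlk1 and Wnt10b, all Nelfb-/- libraries exceeded all CTL libraries. Sox6 reached 6.63, 6.67 and 4.59 CPM in CTL, compared with 15.4, 15.9 and 13.1 CPM for the Nelfb-/- libraries (log2FC 1.32, SE 0.22, limma, adjusted p = 0.013), a call lost without Nelfb-/- replicate 2 (0.054) or Nelfb-/- replicate 3 (0.059). Prdm8 rose from 0.672 ± 0.403 to 2.61 ± 0.594 CPM (SD, n = 3, log2FC 2.02, limma, adjusted p = 0.038), a call lost without any 1 library other than CTL replicate 3 (adjusted p from 0.075 to 0.116). Of the list genes named here as past the threshold, Nkd2, Wnt10b and Slc2a4 passed the threshold in all 15 alternative fits other than the one without 2 libraries, Adig in 14, the others in 10 to 13, and Prdm8 in 8. Over all 6 lists, 8 of 91 tested genes other than the 10 factors were upregulated and 5 were downregulated, beside 7.58% and 3.64% of all genes tested.

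**Figure D4:**
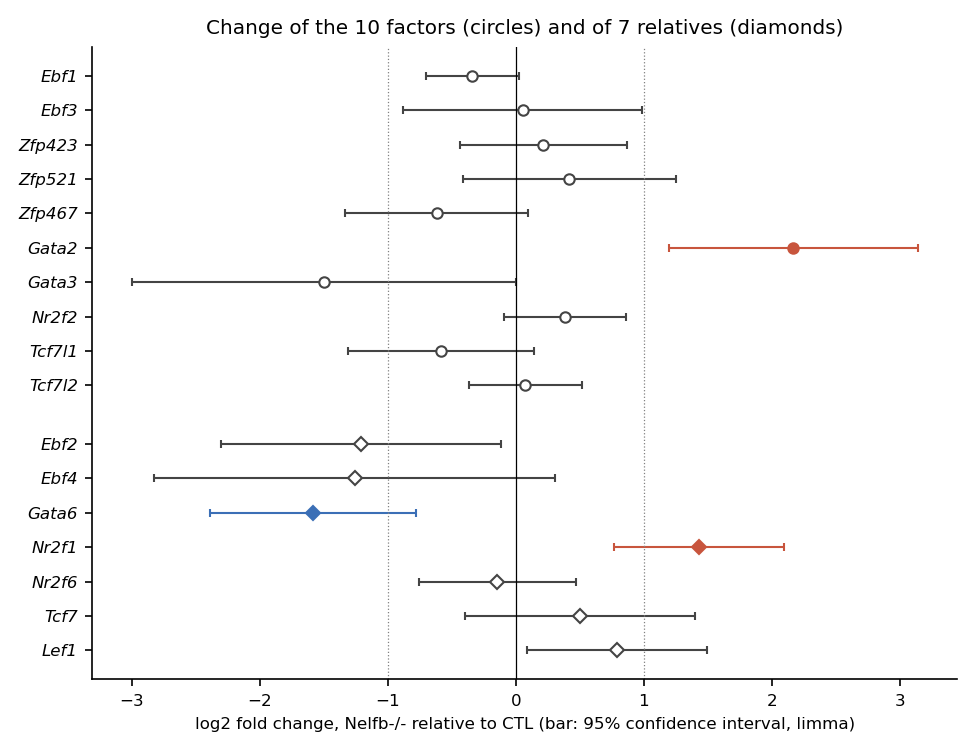
Log2FC in Nelfb-/- relative to CTL cells for the 10 factors (circles) and 7 relatives (diamonds), with the 95% confidence interval from limma as a bar, filled symbols for genes past the threshold and dotted lines at 2-fold. Gata2 lies at 2.17 with an interval from 1.20 to 3.14, and the intervals of the other 9 factors cross 0.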

How the data were processed

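RNA-seq libraries of 3 CTL and 3 Nelfb-/- cultures were analysed from 1 table with 6 columns of values, matched to samples by their labels. The values the authors deposited are CPM, with a constant of 0.0001 added to each, since each column summed to 1e+06 once it was subtracted. The study's methods name mm10, a limit of 10 reads per gene and an ANOVA in Partek, and the submitters' processing notes list STAR 2.7 and Partek 9.0.20.0202. The counting and the use of strand are not given in the sources used here.

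The lowest values of each library rose in steps, read as the CPM worth of 1 read, which gave depths of 17.1 to 29.3 times 1e+06 reads on the listed genes. Between 73.0% and 75.7% of values up to 20 steps were within 0.05 of a whole multiple, so no count test was run. A count of 3 reads was worth 0.102 to 0.175 CPM. CPM were multiplied by a common depth of 22.3 (in 1e+06 reads), rows averaging 10 reads or more (0.449 CPM) were kept, and log2(value + 1) was tested with limma 3.58.1 (R 4.3.3) with an abundance trend and Benjamini-Hochberg adjustment. Fold changes on this scale understate those of low genes. Ratios of paralogs, with 1 read added to each gene, were tested with exact permutation tests (SciPy 1.17.1). The fit was tested on simulated data. Intervals on reads cover counting error only. The groups and gene positions follow the labels and the authors' table, with identifiers and exon lengths from GENCODE vM21 (GRCm38). Of 17551 genes matched by name, 98.9% had the same start and end there.

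The 10 factors and all gene lists were chosen with earlier results of these data known. Named genes are the 10 factors, Nelfb, their close relatives, list genes past the threshold or among the 4 largest changes of a list, and genes said to be named after their values were seen. A few list genes that the counts include are not reported here by name. Zfpm1, the marker genes and B130024G19Rik are named as cofactor, markers and neighbor. Alternatives were other pseudocounts, filters, scalings and variance models, a replicate block, no fold limit and each library left out, with 1 fit without 2 libraries added after the data were seen.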

Additional observations from a re-analysis of the deposited data

How the results depend on the processing

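Gata2 was higher in Nelfb-/- cells under all 16 alternative fits, with log2 fold changes from 1.71 to 2.49. Fits that changed only the filter, the variance model or the replicate block leave the log2 fold change of every factor as it was. They therefore say nothing about its direction. Since the groups did not overlap at Gata2, leaving out libraries could not turn its sign either. Gata2 passed the threshold in 11 of the 15 fits other than the one without 2 libraries, with limma adjusted p from 0.0098 to 0.093. The 4 fits in which it did not pass each left out 1 library, so that the number of factors upregulated lay between 0 and 1 with each library left out. Ebf1, Zfp467, Gata3 and Tcf7l1 were lower and Zfp423, Zfp521 and Nr2f2 higher in all 16 fits. Ebf3 changed sign with median-of-ratios scaling (-0.012), quantile normalization (-0.13), without CTL replicate 3 (-0.13) and without Nelfb-/- replicate 2 (-0.28), and ranged from -0.28 to 0.41 with each library left out. Tcf7l2 changed sign with quantile normalization (-0.035), without Nelfb-/- replicate 1 (-0.090) and without CTL replicate 3 and Nelfb-/- replicate 1 together (-0.068), and ranged from -0.090 to 0.22 with each library left out. The cause was not tested. Quantile normalization shifted the median log2 fold change of all genes by -0.136.

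Without those 2 libraries, 1 factor (Gata3) was counted as downregulated, but they are the same 2 libraries that made its groups overlap. With all libraries Gata3 did not pass (limma, adjusted p = 0.15). Without them, 2864 genes were counted as upregulated and 1519 as downregulated, and 22 and 13 list genes, against 1232, 592, 8 and 5 with all libraries. Leaving out those 2 libraries removed the ones that widened the spread within the groups. With each library left out in turn, the upregulated genes numbered 290 to 1704 and the downregulated genes 136 to 776, and the list genes 2 to 19 and 1 to 11. Without the limit of 2-fold, 947 genes were lower and 1619 higher.

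The labels do not say whether the replicate numbers pair the libraries. The correlations below cannot decide it, since the deviations within a group cancel out. The deviations of libraries with the same number correlated at 0.52, -0.39 and 0.52, and CTL replicates 2 and 3 correlated best with another number. For CTL replicate 3 the best value, with Nelfb-/- replicate 2, was 0.54. A fit with the replicate number as a block gave 1505 upregulated and 670 downregulated genes and 13 upregulated list genes, with Gata2 at an adjusted p of 0.026 in limma. The 4 ratios of paralogs kept their direction under all alternatives run.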
